A study of Mus musculus with 36 samples.

Results

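Matrix metalloproteinases and the tissue inhibitors that bind them were followed in dystrophic mouse quadriceps through the genes *Mmp2*, *Mmp3*, *Mmp8*, *Mmp9*, *Mmp12*, *Mmp13*, *Mmp14*, *Timp1*, *Timp2* and *Timp3*. The members were found by gene symbol in the annotation of the array. All 10 were measured, each by 1 oligonucleotide, among 6540 genes that the array names by a symbol. RNA came from BSG mice, which lack beta-sarcoglycan, and GSG mice, which lack gamma-sarcoglycan, both proteins of the complex that links the muscle fibre membrane to the extracellular matrix. A pair of mice of each strain was taken at each of 9 ages, namely 1 and 2.5 weeks, every 2 weeks from 4 to 14 weeks, and 20 weeks, which gives 36 mice. Each of 36 dual-channel arrays set a mouse of one age against a mouse of the preceding age, with a closing array of 1 week over 20 weeks, so that 9 arrays and 9 mice made up each closed loop. There were 2 loops per strain. Values are log2 ratios of the later over the earlier age, with a direction read from the dyes and from genes of newborn muscle and a base that is not stated, and the level of a mouse is a least-squares estimate within its loop. Wild-type and MDX arrays are not analysed here, so every value below is a level relative to 1 week in a dystrophic strain, and growth of the muscle and course of the disease cannot be told apart. Levels could not be set between strains or between genes, because each ratio is taken within a gene and within a loop.

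Metalloproteinases are zinc enzymes that cut collagens, laminins, elastin and many cell surface proteins. Most are secreted as inactive precursors, become active when a propeptide is removed, and are then blocked by inhibitors of the TIMP family. In muscle they take part in the turnover of the matrix around fibres, in the entry of leukocytes after injury and in the migration of satellite cells, and many of their genes respond to inflammatory signals through AP-1 and Ets factors.

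The promoters of the members show where these factors could act, and 4 short stretches are given because the letters differ among members. RefSeq promoters of GRCm38.p6 (250 bases before the annotated start and 50 after it) were matched for 8 of the 10 members, all but *Mmp2* and *Mmp9*. The letters TGAGTCA, the AP-1 element, or TGACTCA on the other strand, were found in 3 members, and in 5.2% of all 32851 promoters of this length. These members, *Mmp3*, *Mmp12* and *Mmp13*, are near neighbours on chromosome 9 together with *Mmp8*, which had no match. The variant TGAGTAA was found in *Timp1* and in 2.68% of all promoters. It is followed there by AGGAAG, a core of Ets elements that 7 members and 35.4% of all promoters hold, and the letter strings do not overlap. Positions count from the annotated start, with 1 as its first base, and *Mmp12* has a second listed start, whose promoter is the one shown. The promoter of its first listed start held no match to the AP-1 letters. In the windows of 30 bases below, each on the plus strand, the matched letters are in capitals. A match is a description of the letters.
Mmp3, chr9:7445764-7445793, first capital at -46: tggaagcaattaTGAGTCAgttttcgggtg
Mmp12, chr9:7347318-7347347, first capital at -44: tgacatcaacagTGAGTCAgatagaggatt
Mmp13, chr9:7272467-7272496, first capital at -35: accccaaagtggTGACTCAtcactatcatg
Timp1, chrX:20870184-20870213, first capital at 27: tgggtggaTGAGTAAtgcgtccAGGAAGcc

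How closely the spots of a member followed each other over the arrays differed widely, and this is given first. Every oligonucleotide was printed as 2 spots. Over the 36 arrays the log ratios of the spots correlated with r = 0.979 for *Timp1*, 0.942 for *Mmp12*, 0.896 for *Mmp14*, 0.896 for *Mmp2* and 0.788 for *Mmp9*. For *Timp2*, *Mmp3*, *Mmp13*, *Timp3* and *Mmp8* the correlation was 0.360, 0.248, 0.247, 0.156 and 0.119. The median of all 8208 spot pairs was 0.326, with quartiles of 0.121 and 0.596. The members thus fell into 5 whose spots correlated above the upper quartile and 5 near or below the median. Such a correlation also depends on how much a gene varies. The median difference of the spots was 0.206 for *Mmp9*, whose log ratios had a standard deviation of 0.485. It was 0.201 for *Timp2* and 0.205 for *Timp3*, with standard deviations of 0.297 and 0.230. A low correlation alone thus does not show that a member was poorly measured. Arrays also differed: on 9 of 36 arrays the spots correlated below 0.3 across oligonucleotides, 4 of them in loop 1 of BSG, 4 in loop 1 of GSG and 1 in loop 2 of GSG. For values touched by them, results without those arrays are given where the call changes.

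**Figure D1:**
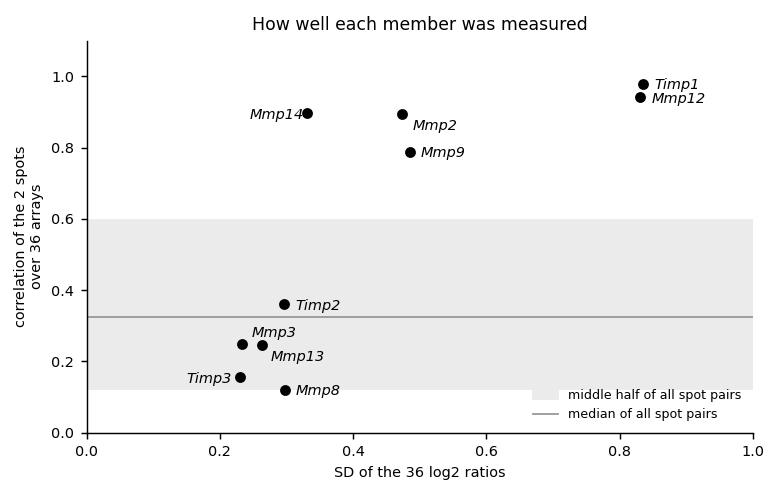
Correlation of the 2 spots of each member over 36 arrays (y axis) against the standard deviation of its 36 log2 ratios (x axis), with the median of all spot pairs as a line and their quartiles as a band. *Timp1*, *Mmp12*, *Mmp14*, *Mmp2* and *Mmp9* lie above the band, and the other members lie in it or at its lower edge.

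Between 1 and 20 weeks 1 of the 10 members passed the test in GSG, where the inhibitor *Timp1* rose, and 0 passed in BSG. In limma with Benjamini-Hochberg adjustment over 8129 oligonucleotides, 3.74% of all oligonucleotides were called in GSG and 1.28% in BSG, and in GSG 0.713% were called higher. At an unadjusted p under 0.05 the counts were 4 members in GSG beside 14.7% of all oligonucleotides and 1 in BSG (*Mmp2*) beside 11.6%. When the change was averaged over both strains (4 mice per age), a comparison chosen after the values were seen, 2 members passed: *Timp1* rose by 1.00 ± 0.27 (SE, log2; adjusted p = 0.0226) and the gelatinase *Mmp2* fell by 0.67 ± 0.16 (1.59-fold lower, adjusted p = 0.0114). In that comparison 5.79% of all oligonucleotides were called, 1.70% higher and 4.10% lower, and 4 members beside 16.4% of all had an unadjusted p under 0.05. Leaving out 1 loop, which leaves 1 mouse per age in that strain, changed either call. *Timp1* passed without GSG loop 1 but not without BSG loop 1, BSG loop 2 or GSG loop 2. *Mmp2* passed without BSG loop 2 but not without BSG loop 1, GSG loop 1 or GSG loop 2. Under the 13 alternatives, these fits among them, the change stayed between 0.82 and 1.05 for *Timp1* and between -0.86 and -0.48 for *Mmp2*. Without the 9 arrays of discordant spots *Timp1* no longer passed (0.93, adjusted p = 0.0977) and *Mmp2* did (-0.71, adjusted p = 0.0174). Neither passed once arrays were scaled to equal spread or weighted. The median change of the 10 members was 0.18 in BSG and -0.06 in GSG, beside -0.02 and -0.01 over all oligonucleotides. The members had no common direction, with 6 of 10 above 0 in BSG and 4 of 10 in GSG.

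**Figure D2:**
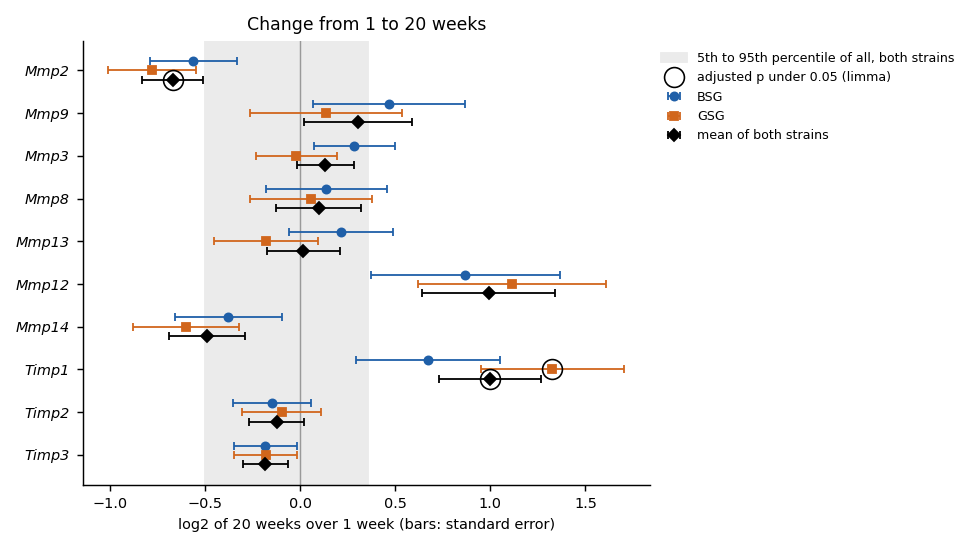
Log2 of the level at 20 weeks over that at 1 week for each member (x axis; bars are standard errors) in BSG, in GSG and averaged over both strains, with the 5th to 95th percentile of all oligonucleotides shaded for the average. Circles mark adjusted p under 0.05: *Timp1* in GSG (1.33) and in the average (1.00), and *Mmp2* in the average (-0.67).

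*Timp1*, a secreted inhibitor of most metalloproteinases that injured and inflamed tissues induce, had the largest change of the 10 members in GSG and in the average of both strains. In the 2 GSG mice of 20 weeks it stood 1.22 and 1.44 above the 1-week mouse of the loop, on the log2 scale. The fitted change was 1.33 ± 0.38 (SE, n = 2 mice per age, 2.51-fold, adjusted p = 0.0476 with limma). Here and below, whole muscle was measured, so that fewer cells of a type and less RNA per cell cannot be told apart. The BSG mice of 20 weeks stood 0.63 and 0.71 above their own 1-week mice, with a fitted change of 0.67 ± 0.38 (adjusted p = 0.530). The difference of the strains in this change, given below, could not be told from 0. All 4 arrays that set 1 week directly against 20 weeks gave the higher value to 20 weeks, by 0.42 to 1.31. The GSG call lies at the threshold: without any 1 loop, of either strain, its adjusted p was 0.0633 to 0.247 with the change at 1.22 to 1.44, and without the 9 arrays of discordant spots it was 0.140. With scaled arrays, array weights, 1 value per mouse or either spot alone it was 0.0548 to 0.512.

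The course of *Timp1* between these ages had a low point at 2.5 weeks. In BSG the mice from 2.5 to 20 weeks, in order of age, had log2 levels against 1 week of -0.73, 1.17, 0.78, 0.11, 1.22, 0.97, 1.27 and 0.63 in loop 1, and of -0.23, 0.79, 0.62, 0.20, 0.39, 0.67, 0.27 and 0.71 in loop 2. In GSG the same ages gave -0.42, 0.49, 1.23, 1.34, 0.47, 0.24, 0.70 and 1.22 in loop 1, and -0.10, 0.58, 1.62, 0.49, 1.99, 0.38, 1.07 and 1.44 in loop 2. Thus 28 of 28 mice of 4 to 20 weeks lay above the 1-week mouse of their loop and 4 of 4 mice of 2.5 weeks lay below it, with no overlap between these groups. This pattern, described after it was seen, was shown by 0.0369% of all oligonucleotides, and 0.590% had all 28 older mice above 1 week.

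The step from 2.5 to 4 weeks was read directly on 4 arrays, which gave *Timp1* log2 ratios of 2.12 and 1.07 in BSG and of 0.81 and 0.84 in GSG. Both GSG arrays of that step are among those of discordant spots, but the spots of *Timp1* on them gave 0.95 and 0.68 on one array and 0.67 and 1.02 on the other. Averaged over both strains, 4 to 20 weeks stood 1.19 ± 0.29 above 2.5 weeks (2.28-fold, adjusted p = 0.119), with 1.18 ± 0.42 in BSG and 1.20 ± 0.42 in GSG. The comparison did not pass the adjustment over all oligonucleotides, of which 0.123% did, and 2 members beside 7.60% of all had an unadjusted p under 0.05. From 4 to 20 weeks the lowest *Timp1* level was that of 8 weeks in both BSG loops and of 12 weeks in both GSG loops, which was not tested. The mean of 4 to 8 weeks differed from that of 12 to 20 weeks by -0.14 ± 0.46 in BSG and 0.12 ± 0.46 in GSG. At the same age the levels of the 2 loops differed by a median of 0.35 in each strain. Each level is taken against the 1-week mouse of its loop, so this difference also holds that of the 1-week mice.

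**Figure D3:**
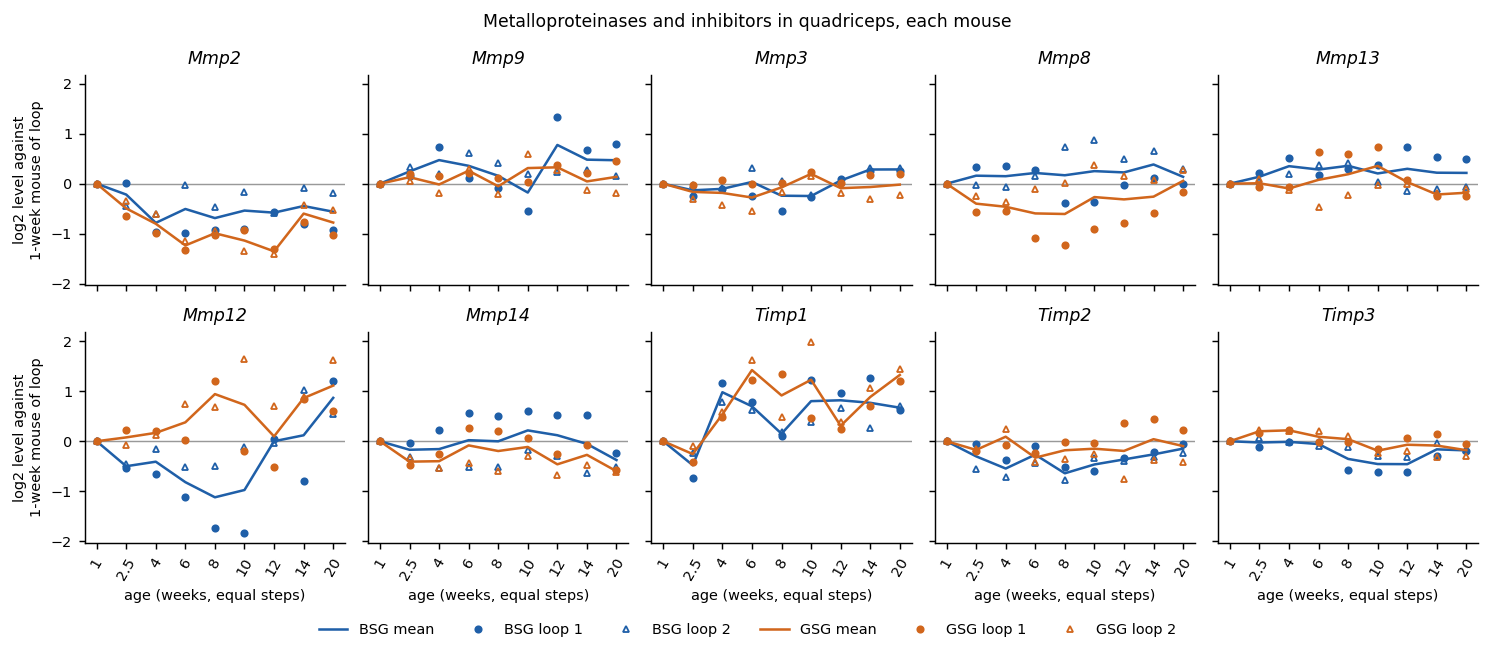
Log2 level of every mouse against the 1-week mouse of its loop (y axis) at the 9 ages (x axis, equal steps), for 10 members, with BSG in blue, GSG in orange, filled circles for loop 1, open triangles for loop 2 and lines through the means of 2 mice. *Timp1* lies below 0 in the 4 mice of 2.5 weeks and above 0 in the 28 older mice. *Mmp2* lies below 0 in 31 of 32 mice. At each of 2.5, 4, 6 and 8 weeks the *Mmp12* levels of BSG, each against its own 1-week mouse, lie below those of GSG. *Timp3* also shows this, as did 2.52% of all oligonucleotides.

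The gelatinases cut denatured collagen and the type IV collagen of basement membranes. *Mmp2*, made mainly by fibroblasts and other mesenchymal cells, was below 1 week in all 16 later mice of GSG, a pattern of 5.94% of all oligonucleotides, and in 15 of 16 of BSG. In GSG the levels of 2.5 to 20 weeks, in order of age, were -0.64, -0.99, -1.32, -1.03, -0.93, -1.31, -0.77 and -1.03 in loop 1 and -0.35, -0.61, -1.15, -0.95, -1.34, -1.40, -0.43 and -0.53 in loop 2. The lowest mean, at 12 weeks, was -1.35 ± 0.34 (adjusted p = 0.147), and 14 and 20 weeks lay nearer to the 1-week level.

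In BSG the loops parted for *Mmp2*. Loop 1 gave 0.00 at 2.5 weeks and then -0.96, -0.99, -0.92, -0.90, -0.56, -0.82 and -0.93, whereas loop 2 gave -0.44, -0.61, -0.02, -0.46, -0.17, -0.59, -0.08 and -0.19. At the same age the levels of the 2 loops, each against its own 1-week mouse, differed by a median of 0.60 in BSG and 0.32 in GSG. The change from 1 to 20 weeks was -0.56 ± 0.23 in BSG and -0.78 ± 0.23 in GSG, where neither passed (adjusted p = 0.314 and 0.0575). For the mean of the 8 later ages 0 members passed within a strain, beside 0.0738% of all oligonucleotides in BSG and 0.652% in GSG (1 member, *Mmp2*, at an unadjusted p under 0.05 in each, beside 6.68% and 8.35%). The *Mmp2* change was -0.92 ± 0.24 in GSG (adjusted p = 0.0730), and averaged over both strains it was -0.73 ± 0.17, where it passed (1.66-fold lower, adjusted p = 0.0181, limma). It was the 1 member called there, beside 1.62% of all oligonucleotides (2 members beside 10.4% unadjusted). Without BSG loop 1, GSG loop 1 or GSG loop 2 that call was lost (adjusted p = 0.190, 0.312 and 0.138). It was also lost without the 9 arrays of discordant spots, where the change was -1.11 (adjusted p = 0.0816), and with scaled arrays, array weights or the first spot alone (0.0688 to 0.0833). Over both strains 31 of 32 later mice lay below 1 week, as 2.15% of all oligonucleotides did in at least as many.

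*Mmp9*, the gelatinase of neutrophils and macrophages, was above 1 week in 26 of 32 later mice, by a median of 0.25 in BSG and 0.17 in GSG. The share of all oligonucleotides with as many mice above 1 week was not counted. The highest value of *Mmp9* was 1.33, in a BSG mouse of 12 weeks whose partner of that age gave 0.23. The higher value was estimated with the array of 12 over 10 weeks in loop 1, which is among those of discordant spots (r = -0.10). The spots of *Mmp9* on it gave 0.94 and 1.90. The change from 1 to 20 weeks was 0.47 ± 0.40 in BSG and 0.14 ± 0.40 in GSG, and did not pass in either strain (adjusted p = 0.796 and 0.960). The 95% interval reached from -0.36 to 1.29 in BSG and from -0.69 to 0.96 in GSG.

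*Mmp12*, the elastase of macrophages, gave the widest spread of the metalloproteinases. In BSG the levels of 2.5 to 20 weeks were -0.54, -0.65, -1.12, -1.75, -1.84, 0.04, -0.79 and 1.20 in loop 1 and -0.46, -0.16, -0.52, -0.50, -0.12, -0.04, 1.03 and 0.54 in loop 2. In GSG they were 0.23, 0.21, 0.02, 1.20, -0.19, -0.52, 0.85 and 0.60 in loop 1 and -0.08, 0.12, 0.74, 0.69, 1.64, 0.71, 0.88 and 1.62 in loop 2. The BSG mice were below 1 week in 12 of 16 cases and the GSG mice above it in 13 of 16, and at 2.5, 4, 6 and 8 weeks every BSG mouse, relative to its own 1-week mouse, lay below both GSG mice of its age, as was the case for 2.52% of all oligonucleotides and, among the members, also for *Timp3*. The difference of the strains was -2.07 ± 1.11 at 8 weeks, with a 95% interval from -4.35 to 0.22, and did not pass (adjusted p = 0.999, limma).

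At 20 weeks all 4 mice had *Mmp12* above 1 week. The change was 0.87 ± 0.50 in BSG, 1.11 ± 0.50 in GSG and 0.99 ± 0.35 averaged over both (1.99-fold, adjusted p = 0.106), close in size to that of *Timp1* with a larger standard error. In BSG the arrays of 12 over 10 weeks and of 20 over 14 weeks in loop 1 gave 1.82 and 1.93. The spots of *Mmp12* on the first of these gave 1.53 and 2.10, although the spots of that array correlated with r = -0.10 across all oligonucleotides. On the array of 8 over 6 weeks in that loop, also among those of discordant spots (r = 0.24), the spots of *Mmp12* gave -1.12 and -0.24, and the low level of 8 weeks in loop 1 was estimated with this array.

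*Mmp3* (stromelysin 1) cuts proteoglycans and activates other metalloproteinases, and *Mmp8* and *Mmp13* are the collagenases of neutrophils and of mesenchymal cells. Their changes from 1 to 20 weeks lay between -0.18 and 0.29 in both strains, with standard errors of 0.21 to 0.32 and adjusted p of 0.720 to 0.996. Mice of *Mmp3* ranged from -0.55 to 0.32 and those of *Mmp13* from -0.47 to 0.74 around the 1-week mouse. For *Mmp8* the GSG mice of loop 1 reached -1.23 at 8 weeks while the mouse of loop 2 at that age stood at 0.02. The value of -1.23 was estimated with the loop 1 array of 8 over 6 weeks, which is among those of discordant spots (r = 0.25). The spots of *Mmp8* on it gave 0.08 and -1.10. On the array of 6 over 4 weeks in that loop they gave -1.52 and -0.28. For *Mmp8* the 95% interval at 20 weeks reached from -0.52 to 0.79 in BSG and from -0.60 to 0.71 in GSG.

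*Mmp14* (MT1-MMP) is a membrane-bound collagenase that also activates the precursor of *Mmp2*. At 20 weeks the 4 mice stood at -0.24, -0.51, -0.58 and -0.62, all below 1 week, and the change was -0.38 ± 0.28 in BSG and -0.60 ± 0.28 in GSG (adjusted p = 0.723 and 0.308). Between 4 and 14 weeks the loops of BSG lay on opposite sides, at 0.23 to 0.61 in loop 1 and at -0.63 to -0.17 in loop 2. The 1-week mouse of a loop is the reference for its 8 later mice, and the 2 loops have different ones.

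The spread of *Mmp14* also held a part that does not follow age. In a closed loop every mouse is labelled once with each dye, so the true ratios sum to 0. The mean of the 36 log ratios of *Mmp14* was 0.27, larger in size than that of 93.4% of all oligonucleotides, and it was -0.34 for *Mmp9* and -0.30 for *Mmp8*, beside 0.08 for *Timp1* and 0.05 for *Mmp2*. With a term for such a dye difference the estimates were the same, and in GSG *Mmp14* then fell (-0.60 ± 0.17, adjusted p = 0.0372), together with *Mmp2* (adjusted p = 0.0414), while *Timp1* kept its call. Averaged over both strains *Mmp14* passed with that term (-0.49, adjusted p = 0.0103) and without the arrays of discordant spots (-0.69, adjusted p = 0.0301), beside -0.49 ± 0.20 with adjusted p = 0.182 without either change.

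*Timp2*, which takes part in the activation of the *Mmp2* precursor as well as in inhibition, was below 1 week in all 16 later mice of BSG, where 3.94% of all oligonucleotides showed this, and in 12 of 16 of GSG. Its median was -0.35 in BSG and -0.17 in GSG. *Timp3*, the inhibitor bound to the matrix, was below 1 week in 15 of 16 BSG mice and 8 of 16 GSG mice. At 20 weeks *Timp2* was at -0.15 ± 0.21 and -0.10 ± 0.21, and *Timp3* at -0.18 ± 0.17 in each strain. None of these changes passed the test.

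The tests that compare the courses found no called member. The moderated F test of any change over the 9 ages called 0 members in either strain, beside 0.0984% of all oligonucleotides in BSG and 0.590% in GSG, and at an unadjusted p under 0.05 it held *Timp1* in BSG (4.00% of all) and *Timp1* and *Mmp2* in GSG (7.81%). The contrast of 4 to 8 weeks against 12 to 20 weeks called 0 members and 0 of 8129 oligonucleotides in both strains, and at an unadjusted p under 0.05 it held 0 members beside 0.972% of all in BSG and 1.91% in GSG. Between BSG and GSG, the temporal Hotelling test developed by the authors was run in an implementation made here. It compares quadratic curves over the 8 later ages, and called 0 members and 0% of all oligonucleotides (0 members and 4.40% of all at an unadjusted p under 0.05). The authors' own pairwise tests listed genes that differed between BSG and GSG, among them *Il6* and *Postn*. Why the outcomes differ was not tested. In limma 0 of 90 comparisons of the strains, made at each later age and for the mean of the later ages, had an unadjusted p under 0.05, the smallest being 0.0745 for *Mmp12* at 8 weeks. At 20 weeks 0 of all oligonucleotides differed between the strains after adjustment, and 7.21% before it. At 20 weeks BSG minus GSG was -0.65 for *Timp1*, with a 95% interval from -1.75 to 0.44, and 0.22 for *Mmp2*, with an interval from -0.45 to 0.89, so that differences of these sizes could not be told from 0 with 2 mice per age.

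Related genes were read from lists, of which the medians and counts are a description. Of the other metalloproteinases with *Timp4* and *Reck*, 11 were measured and 0 passed the test between 1 and 20 weeks in either strain, with changes from -0.71 to 0.52 in GSG. Of 11 measured genes of plasminogen activation and serpins, which act upstream of several metalloproteinases, 0 passed. Among 10 ADAM and ADAMTS proteases 1 fell in GSG, *Adam19*, by 0.85 ± 0.19 (adjusted p = 0.0101). Among 17 genes that induce metalloproteinases or carry their signals, 1 rose in BSG, the cytokine gene *Il6*, by 1.73 ± 0.41 (adjusted p = 0.0324), and 0 passed in GSG, where *Il6* was at -0.11 ± 0.41. In limma the difference between the strains in the change from 1 to 20 weeks passed for none of these genes. The authors' pairwise tests of the whole course listed *Il6* as a potential marker of BSG. Of 10 cathepsins and cystatins 1 rose, in GSG, the lysosomal protease *Ctss* of macrophages, by 1.55 ± 0.43 (adjusted p = 0.0434).

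Several substrate genes fell. Of 24 oligonucleotides for 21 collagens and other matrix genes, 6 fell and 0 rose in GSG between 1 and 20 weeks, and 1 fell in BSG, and their median was -0.64 in GSG and -0.39 in BSG, beside -0.01 and -0.02 over all oligonucleotides. *Col1a1*, a chain of fibrillar type I collagen, fell by 2.13 ± 0.37 in GSG (adjusted p = 0.000998) and by 1.66 ± 0.37 in BSG (adjusted p = 0.0237). In GSG the laminin chain gene *Lamb1* fell by 1.56 ± 0.25 (adjusted p = 0.000487) and *Postn*, which encodes the matrix protein periostin, by 2.16 ± 0.42 (adjusted p = 0.00290). Of the 24 oligonucleotides 3 lay above 0 in BSG and 4 in GSG. Among them was the fibrillar collagen gene *Col3a1*, at 0.58 ± 0.40 in BSG and 1.02 ± 0.40 in GSG, which passed in neither (adjusted p = 0.690 and 0.191). *Mmp2* and *Mmp14* lay below 1 week at 20 weeks, as most of the substrates did, whereas *Timp1* and *Mmp12* lay above.

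Markers of cell types were set beside the members, because RNA of whole muscle mixes fibres with other cells. Of 11 macrophage markers 4 rose in GSG, among them *Mpeg1* by 2.09 ± 0.44, *Cd68* by 1.45 ± 0.37 and *Lgals3* by 1.98 ± 0.51 (adjusted p = 0.00598, 0.0248 and 0.0277), and 0 passed in BSG. The other was *Ctss*, already counted with the cathepsins. *Col1a1* likewise stands in both the matrix and the fibroblast list, so the lists are not separate evidence. The macrophage markers had a median of 0.73 in BSG and 0.97 in GSG, and *Lyz2*, a marker of macrophages and neutrophils, was at -0.26 and -0.06. Of 10 neutrophil markers, the cells that carry *Mmp8* and *Mmp9*, 0 passed in either strain, and their median was -0.17 in BSG and 0.08 in GSG. Of 8 muscle fibre genes 0 passed. Of 15 oligonucleotides for genes of newborn muscle 6 fell in BSG and 7 in GSG, beside 1.28% and 3.74% of all called. The 6 (*Dlk1*, *Meg3*, *H19*, *Ndn*, *Mest* and *Cdkn1c*) fell in both strains and are the genes from which the direction of the ratios was read. The sign of their change was set by that choice and is not a result. The authors describe a strong decrease of *Dlk1* after 1 week, a trend that their quantitative PCR shared. Of 9 oligonucleotides for fibroblast genes, *S100a4*, which leukocytes also express, rose by 2.55 ± 0.47 in GSG and *Col1a1*, *Fbln1* and *Fap* fell there. In BSG 1 fell, *Col1a1*, and 5 of 9 lay above 0, with *Fap* at 0.35 ± 0.25. The median of the fibroblast genes was 0.07 in BSG and -0.18 in GSG. Arrays of ratios do not show which markers are at a level near 0.

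Mouse by mouse, *Timp1* followed the macrophage markers. Over the 36 mice, with values centred within each loop, the correlation of *Timp1* with the median of the 11 markers was r = 0.84, higher than that of 99.4% of all oligonucleotides, with 0.81 over 18 BSG mice and 0.87 over 18 GSG mice. It was 0.63 with cathepsins, 0.37 with neutrophil markers and -0.04 with fibroblast genes. The macrophage median also lay below 1 week in 4 of 4 mice of 2.5 weeks, at -0.24 to -0.10, and above it in 27 of 28 mice of 4 to 20 weeks, at -0.22 to 1.63. Either part was also seen in other lists. The ADAM, collagen, fibroblast and newborn muscle medians lay below 1 week in 4 of 4 mice of 2.5 weeks. They lay above it in 13, 4, 3 and 0 of 28 older mice. The muscle fibre median lay above it in 27 of 28 older mice and below it in 0 of 4 mice of 2.5 weeks. The part of macrophages in the *Timp1* values was not tested. These correlations are descriptions. Mice of neighbouring ages share an array, and a member and a list are read on the same arrays.

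*Mmp12* followed the macrophage median with r = 0.82 in GSG and 0.14 in BSG, where the dip of loop 1 at 8 and 10 weeks had no counterpart in the markers, which stood there at 0.72 and 1.19. *Mmp2* went against it, with r = -0.55 over 36 mice, -0.61 in BSG and -0.52 in GSG, and with fibroblast genes it had r = 0.59 (0.27 in BSG and 0.81 in GSG). *Mmp14* followed the collagens and matrix genes with r = 0.69, higher than for 99.1% of all oligonucleotides, and did so in both strains (0.78 in BSG and 0.65 in GSG), although its change from 1 to 20 weeks did not pass the test. *Mmp12* had the opposite sign with these genes (r = -0.50).

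**Figure D4:**
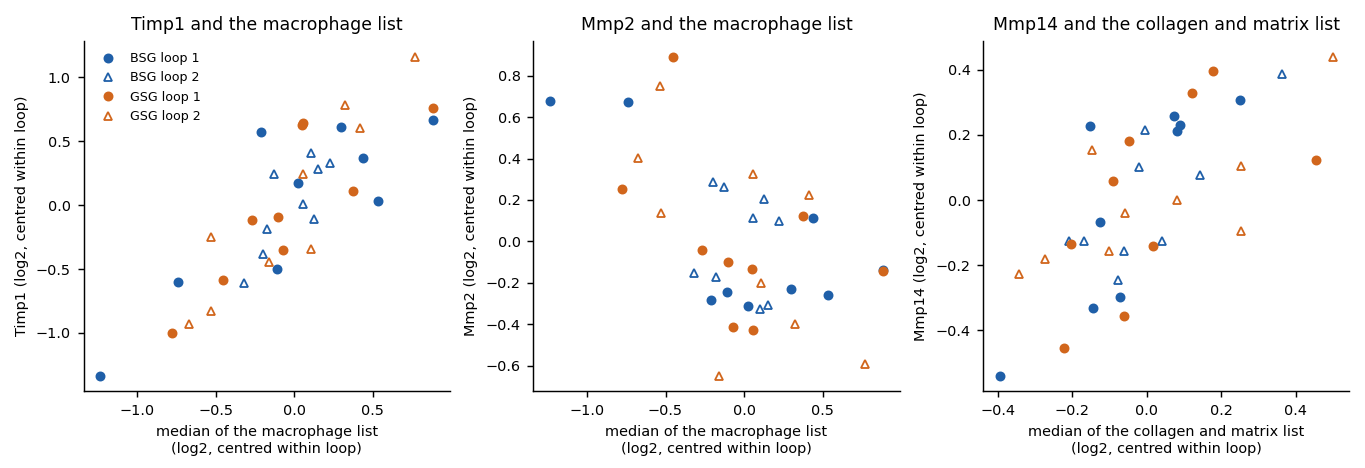
Each point is 1 of 36 mice, with log2 values centred within its loop: *Timp1* against the median of 11 macrophage markers (r = 0.84), *Mmp2* against the same median (r = -0.55), and *Mmp14* against the median of 24 oligonucleotides for collagens and matrix genes (r = 0.69). BSG is blue, GSG orange, loop 1 filled circles and loop 2 open triangles. Both strains show the positive relation of *Timp1* (r = 0.81 in BSG and 0.87 in GSG).

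The genes most like *Timp1* over the 36 mice were *Ccl9*, a chemokine gene of myeloid cells (r = 0.88), *Laptm5*, a lysosomal membrane protein of leukocytes (0.87), and *Irf5*, an interferon regulatory factor (0.87). *Laptm5* is itself in the macrophage list. *Ccl9* rose in GSG by 2.05 ± 0.43 (adjusted p = 0.00602), while *Laptm5* and *Irf5* did not pass there (adjusted p = 0.118 and 0.221). The genes most like *Mmp2* were *Fbln1*, which encodes the matrix protein fibulin 1 (0.81), *Cdc37*, a co-chaperone of kinases (0.81), and *Dapk3*, a kinase (0.81). *Fbln1* fell in GSG by 0.81 ± 0.22 (adjusted p = 0.0439).

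Among pairs of members, the correlations over the 36 mice ran from -0.56 to 0.53. *Timp1* and *Mmp2* ran in opposite directions (r = -0.56 over 36 mice, -0.60 in BSG and -0.53 in GSG). The 3 members that hold the AP-1 letters shown above gave r = 0.53 for *Mmp3* with *Mmp12* (0.67 in BSG and 0.26 in GSG), 0.23 for *Mmp3* with *Mmp13* and -0.10 for *Mmp12* with *Mmp13*. With *Mmp9*, whose promoter was not matched, *Mmp3* gave a similar r of 0.51 (0.59 in BSG and 0.31 in GSG). Over the arrays the spots of *Mmp3* and of *Mmp13* correlated weakly.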

How the data were processed

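The authors hybridised amplified, dye-labelled RNA on arrays of 65-mer oligonucleotides printed in duplicate, scanned them with GenePix and corrected the arrays for position, dye and differences between arrays (function all.norm of smida). The authors deposited the resulting log ratios of the channels, taken here as log2. Neither base nor direction is given in the sources used here, and values reach -12.0 and 11.5. The ratios were read as Cy5 over Cy3: with this direction *Dlk1*, *Meg3*, *H19*, *Ndn*, *Mest* and *Cdkn1c*, genes of newborn muscle, fell from 1 to 20 weeks in both strains (*Dlk1* at -3.05 in BSG and -3.54 in GSG), and with the sign turned all would rise. Spot brightness is not analysed here, so that signal over background is unknown.

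The 2 spots were averaged, giving 8129 oligonucleotides, of which 6752 have 1 gene symbol, 7 several and 1370 none, by GEO's platform annotation. No filter or further normalization was applied, and array medians lie between -0.06 and 0.06. Each age relative to 1 week was fitted per strain over 36 arrays (limma version 3.58.1, R version 4.3.3, moderated variance) with Benjamini-Hochberg adjustment over all oligonucleotides at 0.05. The arrays were taken as independent, although each mouse is on 2 of them. The level of a mouse is its least-squares level in its loop. The temporal Hotelling test used degree 2 and a variance per strain. Tests were tried on simulated data. Plots were made in matplotlib 3.10.9 under Python 3.11.15. Promoters are those of RefSeq.

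Members, lists, contrasts and the rule for named genes (every member, up to 3 genes per list with the smallest p among those called, and the 3 genes most correlated with a called member) were chosen with earlier results of these data known. Averages over both strains and the comparison with 2.5 weeks were added after seeing the values, and *Fap* was named outside the rule after its values were seen. *Il6* in GSG, *Fap* in BSG, *Col3a1*, *Lyz2*, *Laptm5* and *Irf5* are given as values that did not pass. The mice of an age are separate individuals by the series' design text. Alternatives were each loop left out, arrays centred or scaled, a dye term, arrays of discordant spots left out, array weights, 1 value per mouse, loops as a random block, either spot alone and other forms of the Hotelling test.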

Additional observations from a re-analysis of the deposited data

How the results depend on the processing

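Between 1 and 20 weeks in GSG the 1 member called, *Timp1*, was lost (0 members called) with scaled arrays, with array weights, without arrays of discordant duplicate spots, with 1 value per mouse and with the first or second spot alone, and 0 to 1 members were called with each loop left out in turn, *Mmp2* in place of *Timp1* where a BSG loop was left out. The dye term called 3 members and loops as a random block 2. Its value stayed between 1.07 and 1.44 under the 13 alternatives. In the mean of both strains, 2 members became 0 with scaled arrays and with array weights, 0 to 1 with a loop left out and 3 with the dye term, which added *Mmp14*, and without arrays of discordant spots *Mmp14* took the place of *Timp1*. For the mean of later ages, 1 member in the average of both strains became 0 with scaled arrays, without arrays of discordant spots, with array weights and with the first spot alone, 2 with 1 value per mouse and 0 to 1 with a loop left out, and in GSG 0 became 1, *Mmp2*, with the dye term, 1 value per mouse and loops as a random block, and 0 to 1 with a loop left out. Without arrays of discordant spots the later-age change of *Mmp2* was -1.57 in GSG and -1.11 in the average. Against 2.5 weeks 0 members became 1, *Timp1*, with 1 value per mouse (adjusted p = 0.00199, range 0.00199 to 0.999 over the alternatives). The changes from 1 to 20 weeks of *Timp1*, *Mmp2*, *Mmp12* and *Mmp14*, those of *Mmp2* at later ages in GSG and in the average, and that of *Timp1* against 2.5 weeks in the average reversed under none of the 13 alternatives. Changes of single members at other ages and differences between strains were not recomputed one by one. In BSG, in the contrast of 4 to 8 with 12 to 20 weeks, in the F tests and between the strains 0 members were called under each. Over all oligonucleotides the counts called ranged from 1 to 266 in BSG, from 33 to 464 in GSG and from 114 to 679 in the average. The number of mice, 2 per age and strain, limits the precision. The cause of the lost calls was not tested.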
